A study of Mus musculus with 6 samples.

Results

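The genes described here encode the receptors through which bone marrow cells read colony-stimulating and related growth factors, together with the ligand M-CSF. They were fixed as a list of 9 symbols, Csf2ra, Csf2rb, Csf2rb2, Il3ra, Csf1r, Csf1, Csf3r, Flt3 and Kit, and each was looked up by its Ensembl ID in the count data of every library. All 9 were found among 56748 IDs, and all 9 were among the 21849 genes that passed the filter on low counts. The RNA-seq libraries were made from polyadenylated RNA of unstimulated bone marrow-derived dendritic cells (BMDCs) of wild-type (WT) mice and of mice lacking Nfkb2 in every cell (Nfkb2-/-), with 3 libraries per genotype and 6 in all. Nfkb2 encodes p100, the precursor of the p52 subunit of noncanonical NF-κB. Cultures of both genotypes lasted 9 days. Bone marrow cells were given 20 ng/mL GM-CSF alone for 5 days and then 20 ng/mL GM-CSF with 10 ng/mL IL-4 for 4 days. Every culture was therefore grown in the ligand of one of the receptors measured, and no library from a culture without GM-CSF was analysed here. Because the deletion is global, the bone marrow progenitors lacked Nfkb2 before the culture began. The ages of the mice were not given for these cultures in the sources used here.

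GM-CSF, IL-3 and IL-5 signal through receptors that pair a ligand-specific alpha chain with a shared beta chain, which carries the kinase JAK2 and activates STAT5. The mouse has a second beta chain gene, Csf2rb2, whose product serves the IL-3 receptor. CSF1R, KIT and FLT3 are receptor tyrosine kinases for M-CSF, stem cell factor and FLT3 ligand, and the G-CSF receptor CSF3R is a cytokine receptor of the granulocyte lineage. In bone marrow, KIT and FLT3 mark progenitors, CSF1R marks monocytes and macrophages, and GM-CSF drives progenitors toward dendritic and other myeloid cells.

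Total counts ranged from 29863927 to 55623068 per library, and 3 counts were worth 0.0560 to 0.103 CPM (counts at a common library size), so that every member was measured far above the level of 3 counts. Nfkb2 itself was at 215, 154 and 354 CPM in WT replicates 1, 2 and 3 and at 44.8, 32.3 and 32.6 CPM in Nfkb2-/- replicates 1, 2 and 3, with no overlap between the genotypes. The libraries differed within genotypes too. Nfkb2-/- replicate 1 had counts on 47952 IDs, against 27692 to 33841 in the others, and WT replicate 3 had 426 CPM over the macrophage markers, against 1856 to 4495 CPM in the others. In the check of the cell type label, dendritic cell markers summed to between 5945 and 10476 CPM in WT and between 7683 and 8817 CPM in Nfkb2-/- libraries, and of 12 such markers edgeR called 1, Itgax, which encodes CD11c, higher in Nfkb2-/- BMDCs. DESeq2 called 2 of them higher and 1, the endocytic receptor gene Ly75, lower, against 8.6% of all genes. At an unadjusted p under 0.05 by edgeR, 6 of the 12 passed, against 17.1% of all genes. The genotypes did not overlap in 5 markers that were higher and 2 that were lower in Nfkb2-/- BMDCs, against 12.7% and 12% of all genes. The summed level of lymphocyte and erythroid markers was at most 9.29 CPM in any library. In these bulk libraries, fewer cells of a type and less RNA per cell cannot be told apart.

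The shared beta chains were the most abundant of the 9 mRNAs. Levels were divided by the length of merged exons, which cover every annotated isoform, so that genes are only roughly comparable. That length was 7277 bases for Csf2rb, whose longest coding transcript has 4900. For Csf2rb2 both were 4740 bases. WT BMDCs had 351 ± 73.0 CPM per kb of Csf2rb, 228 ± 42.8 CPM per kb of Csf2rb2, 46.6 ± 9.22 CPM per kb of Csf2ra and 30.3 ± 20.7 CPM per kb of Csf1r (mean ± SD, n = 3). Nfkb2-/- BMDCs had 253 ± 12.0, 168 ± 1.77, 74.3 ± 16.8 and 23.2 ± 3.70 CPM per kb of the same genes, and these genes took ranks 1 to 4 in this order in all 6 libraries. By the mean per kb over the 6 libraries, Csf2rb was above 99.7% of the tested genes, Csf2rb2 above 99.5%, Csf2ra above 97.4% and Csf1r above 92.7%. The other members were nearer the middle of the transcriptome. Kit, the receptor for stem cell factor, was at 4.53 ± 0.332 CPM per kb in WT and 5.14 ± 0.524 CPM per kb in Nfkb2-/- BMDCs. Csf1, which encodes M-CSF, was at 4.51 ± 2.05 and 6.97 ± 0.966 CPM per kb, and Il3ra, the alpha chain for IL-3, at 3.44 ± 0.596 and 2.44 ± 0.354 CPM per kb. Csf3r was at 3.40 ± 2.17 and 0.979 ± 0.382 CPM per kb and Flt3 at 2.46 ± 0.438 and 2.18 ± 0.0876 CPM per kb, in WT and Nfkb2-/- BMDCs respectively. In WT BMDCs, the mean levels per kb of Kit, Csf1, Il3ra and Flt3 all lay within 1 SD of the mean of Csf3r, and their order changed between libraries. Csf2ra and Csf1r, next to each other in the order, differed in WT BMDCs by less than the SD of Csf1r. Csf3r ranked 6, 7 and 9 among the members in the WT libraries and 9 in each Nfkb2-/- library. Csf1 ranked 5 in every library but WT replicate 3, where it ranked 8.

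**Figure D1:**
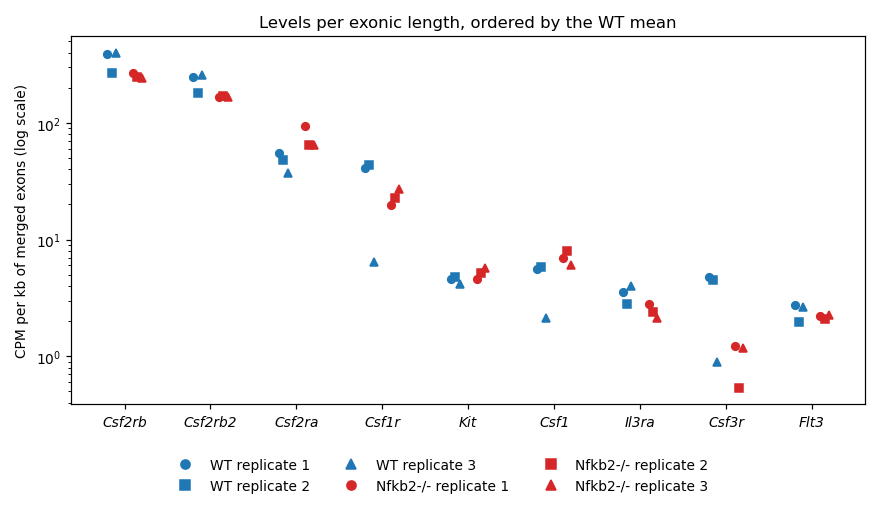
Level of each member in CPM per kb of exonic sequence on a log axis, with 1 point per library for WT and Nfkb2-/- BMDCs. Csf2rb, Csf2rb2, Csf2ra and Csf1r stood in this order in all 6 libraries, and the other 5 members lay close together and changed places.

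None of the 9 members was called differentially expressed between WT and Nfkb2-/- BMDCs by the quasi-likelihood test of edgeR. A call required a fold change over 1.2 and a p-value under 0.05 after Benjamini-Hochberg adjustment, and 1.14% of all genes tested met it, 0.453% higher and 0.682% lower in Nfkb2-/- BMDCs. Without WT replicate 2, 5.06% of all genes were called, and again no member. At an unadjusted p-value under 0.05, 3 of the 9 members passed (33.3%), namely Csf2ra, Csf3r and Il3ra, against 17.1% of all genes. DESeq2 called 1 of the 9 members, Csf3r, which was lower in Nfkb2-/- BMDCs, while it called 8.6% of all genes. The genotypes did not overlap in 4 members (44.4%), against 24.7% of all genes. Csf2ra and Csf1 were the members whose Nfkb2-/- values all lay above the WT values, and Csf2rb and Csf2rb2 those whose values all lay below. Csf2rb and Csf2rb2 are neighbouring paralogs with partly shared sequence, and each is counted here. Without TMM scaling, the genotypes did not overlap in Csf2ra alone. The median log2 fold change (Nfkb2-/- over WT) of the members was -0.38 and that of all genes 0.08. With 3 libraries in each genotype, the smallest p of an exact permutation test is 0.1, so that no single member could pass 0.05 by that test.

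**Figure D2:**
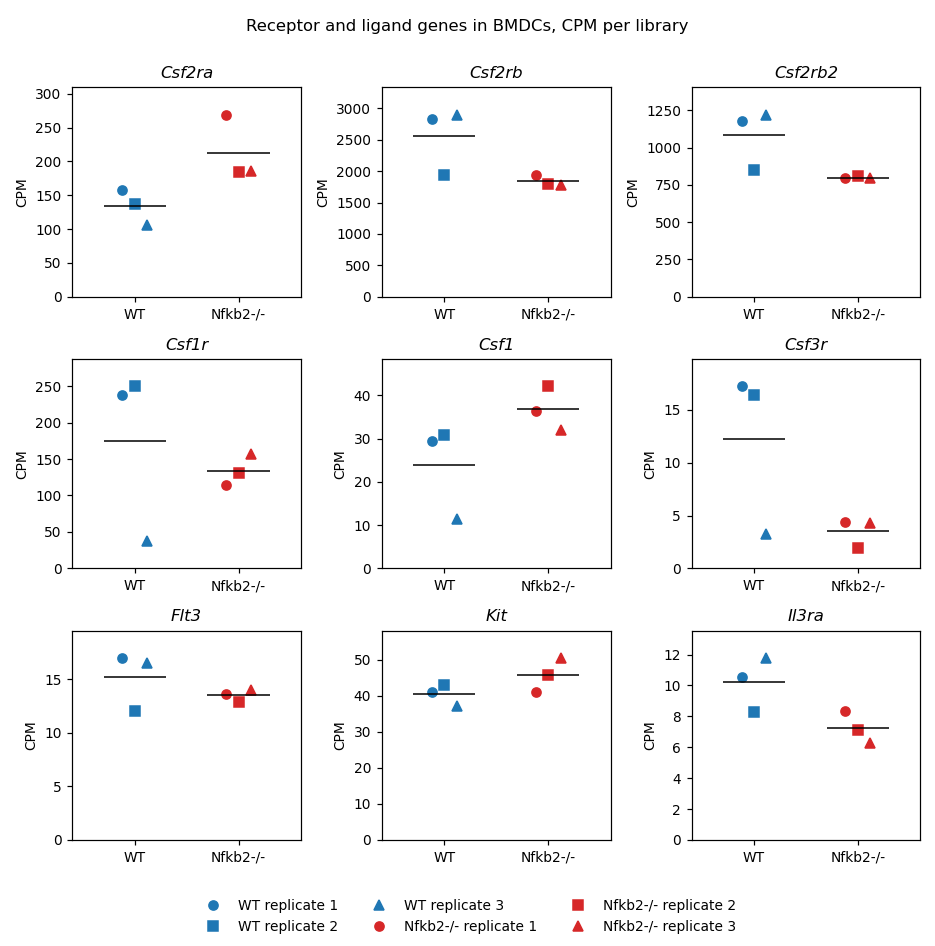
TMM-normalized CPM of the 9 members, 1 panel per gene, with a point for each of the 3 WT and 3 Nfkb2-/- libraries and a horizontal line at the mean of each genotype. The genotypes did not overlap in Csf2ra, Csf2rb, Csf2rb2 and Csf1, and a single low WT library widened the WT spread of Csf1r, Csf1 and Csf3r.

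**Figure D3:**
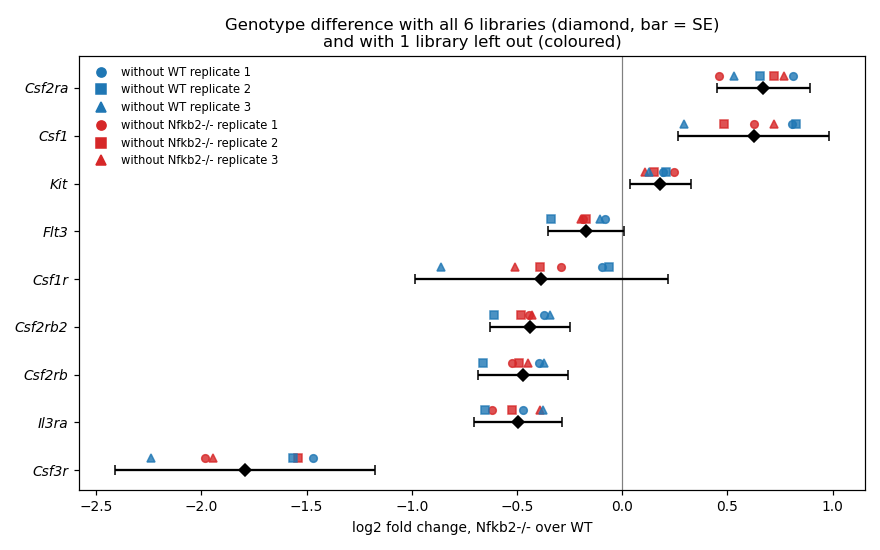
Log2 fold change of each member, Nfkb2-/- over WT, with its standard error from edgeR, beside the values with each library left out in turn. Csf3r had the lowest value at -1.79 and Csf2ra the highest at 0.67, and leaving out WT replicate 3 moved Csf1r from -0.38 to -0.86.

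The promoter sequences of Csf2ra, Csf1 and Csf3r, the 3 members with the widest range over the libraries among those with a RefSeq window, and of Csf2rb2, the beta chain with such a window, show which letters lie around their start sites. RefSeq windows on GRCm38.p6 run from 250 bases before to 50 bases after the annotated start, and 7 of the 9 members had one, while Csf2rb and Csf1r had none. Both strands were searched for the general κB pattern bound by NF-κB dimers (GGG, any 5 bases, CC), for GAGGAA, a core of PU.1 sites in myeloid genes, and for TTCNNNGAA, the pattern bound by STAT5 dimers. Sequences read 5′ to 3′ on the strand of the gene, and capitals mark the matches, with overlapping matches merged into 1 stretch.
Csf2ra (chr19:61228369-61228668, minus strand): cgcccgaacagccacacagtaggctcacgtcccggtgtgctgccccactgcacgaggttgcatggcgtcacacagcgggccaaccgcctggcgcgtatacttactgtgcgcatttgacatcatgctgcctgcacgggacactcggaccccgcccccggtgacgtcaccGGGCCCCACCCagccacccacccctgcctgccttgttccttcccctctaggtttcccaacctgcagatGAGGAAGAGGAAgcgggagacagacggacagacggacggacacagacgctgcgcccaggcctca
Csf2rb2 (chr15:78305672-78305971, minus strand): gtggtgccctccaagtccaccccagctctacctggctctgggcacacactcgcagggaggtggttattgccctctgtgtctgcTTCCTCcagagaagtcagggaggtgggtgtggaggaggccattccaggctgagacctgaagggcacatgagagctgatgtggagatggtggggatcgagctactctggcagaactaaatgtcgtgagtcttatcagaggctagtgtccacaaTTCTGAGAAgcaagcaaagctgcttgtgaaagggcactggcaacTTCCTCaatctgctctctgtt
Csf1 (chr3:107760420-107760719, minus strand): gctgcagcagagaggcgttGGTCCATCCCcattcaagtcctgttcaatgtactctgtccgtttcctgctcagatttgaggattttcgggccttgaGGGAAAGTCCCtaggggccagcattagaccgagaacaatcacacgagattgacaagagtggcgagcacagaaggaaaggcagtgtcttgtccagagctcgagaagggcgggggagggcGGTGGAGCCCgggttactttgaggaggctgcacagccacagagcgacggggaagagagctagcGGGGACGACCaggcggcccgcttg
Csf3r (chr4:126024409-126024708, plus strand): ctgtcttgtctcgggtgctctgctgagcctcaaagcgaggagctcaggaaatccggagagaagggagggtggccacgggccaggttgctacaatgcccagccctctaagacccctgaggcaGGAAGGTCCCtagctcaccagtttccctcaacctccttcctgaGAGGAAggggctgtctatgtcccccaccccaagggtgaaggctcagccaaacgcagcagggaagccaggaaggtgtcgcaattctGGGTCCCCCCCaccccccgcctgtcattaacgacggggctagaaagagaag

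The window of Csf2ra held the κB pattern 82 bases before the start and GAGGAA at 14 and at 8 bases before it. In the window of Csf1, GGGAAAGTCC lay 155 bases before the start, with further κB matches on both sides of it. Csf3r had the κB pattern at 129 bases before the start and at the start itself, and GAGGAA at 86 bases before it. Csf2rb2 had no κB match in its window but TTCTGAGAA at 15 bases before the start and GAGGAA on the other strand. Of the 7 members with a window, 5 held the κB pattern (Csf2ra, Csf1, Csf3r, Kit and Il3ra), 4 held GAGGAA (Csf2ra, Csf2rb2, Csf3r and Kit) and 1 held TTCNNNGAA (Csf2rb2). The shares among 32851 RefSeq promoter windows were 50.8%, 28.3% and 8.3%. Flt3 had none of these patterns in its window. A match in letters is a description of the sequence, and binding was not measured in these libraries.

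The alpha and beta chains of the GM-CSF receptor differed between the genotypes in opposite directions, and neither difference passed the test across all genes. Csf2ra (ENSMUSG00000059326, chr19:61223957-61228429, minus strand, GRCm38) encodes the alpha chain that binds GM-CSF, and it lies on the chromosome that also carries Nfkb2. It was at 159, 137 and 106 CPM in WT replicates 1, 2 and 3 and at 269, 185 and 186 CPM in Nfkb2-/- replicates 1, 2 and 3. Nfkb2-/- replicate 1 was the highest and the other Nfkb2-/- libraries were nearly equal, still above every WT library. The means were 134 ± 26.5 and 213 ± 48.3 CPM (SD, n = 3), and the log2 fold change was 0.67 (SE 0.22) with a Benjamini-Hochberg adjusted p of 0.189 by edgeR. The exact two-sided permutation p was 0.1. Without Nfkb2-/- replicate 1 the log2 fold change was 0.46, and the genotypes did not overlap in any of the scalings or sets of libraries tried.

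Csf2rb (ENSMUSG00000071713, chr15:78325752-78353847, plus strand), the beta chain common to the GM-CSF, IL-3 and IL-5 receptors, was at 2821, 1940 and 2895 CPM in WT and at 1938, 1796 and 1781 CPM in Nfkb2-/- libraries. WT replicates 1 and 3 stood well above the rest, and WT replicate 2 was nearly equal to Nfkb2-/- replicate 1. The log2 fold change was -0.47 (SE 0.21, adjusted p = 0.321 by edgeR, exact permutation p = 0.1), and leaving out WT replicate 2 gave -0.66 and leaving out WT replicate 3 gave -0.37. Csf2rb2 (ENSMUSG00000071714, chr15:78282507-78305721, minus strand), the neighbouring IL-3-specific beta chain, was at 1178, 849 and 1219 CPM in WT and at 794, 808 and 793 CPM in Nfkb2-/- libraries. Its WT libraries followed the order of Csf2rb, and its Nfkb2-/- libraries were among the most even of all genes, since 99.4% of 10641 genes with at least 5 CPM had a wider range there. The log2 fold change of Csf2rb2 was -0.44 (SE 0.19) with an adjusted p of 0.30 by edgeR and an exact permutation p of 0.1.

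The products of Csf2rb and Csf2rb2 are close paralogs, and their longest transcripts of 4900 and 4740 bases had 91.0% identity over 4622 aligned bases. Of all stretches of 100 bases in these transcripts, 6.96% of those in Csf2rb and 7.20% of those in Csf2rb2 occurred in both. Of stretches of 50 bases, 18.4% and 19.0% did. Reads that lie within such stretches cannot be assigned. How many reads this concerns depends on their length, so the separate levels are uncertain to an extent not measured here. The sum of both beta chains, which does not depend on how shared reads were split between them, was 3999, 2789 and 4114 CPM in WT and 2733, 2604 and 2573 CPM in Nfkb2-/- libraries. Its log2 fold change was -0.46 (SE 0.22, adjusted p = 0.338 by edgeR). Whether such reads were split or dropped was not given in the sources used here. Dropped reads would be missing from the sum too. The share of Csf2rb2 in the counts of both beta chains was 29.5%, 30.4% and 29.6% in WT and 29.1%, 31.0% and 30.8% in Nfkb2-/- libraries. This share differed by 0.461 percentage points between the means (exact permutation p = 0.6), less than the SD within either genotype. Without Nfkb2-/- replicate 1 the difference was 1.08 points, with both Nfkb2-/- libraries left above the WT libraries (exact permutation p = 0.2).

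Set against the beta chains, the alpha chain Csf2ra made up a different part of the receptor mRNAs in each genotype. Its level per kb was 8.68%, 10.7% and 5.63% of the summed beta chain level per kb in WT and 21.6%, 15.4% and 15.7% in Nfkb2-/- libraries. The means were 8.34% ± 2.55 and 17.6% ± 3.48 (SD, n = 3), and each Nfkb2-/- library was above each WT library. This ratio does not depend on the scaling between libraries, but its size depends on the exonic lengths used. It was chosen after the values of its parts were seen, so no test is given. Il3ra (ENSMUSG00000068758, chr14:14346275-14356011, plus strand), which binds IL-3, was at 10.5, 8.29 and 11.8 CPM in WT and at 8.35, 7.14 and 6.26 CPM in Nfkb2-/- libraries. WT replicate 2 fell between the Nfkb2-/- values, so that the genotypes overlapped. The log2 fold change of Il3ra was -0.49 (SE 0.21), with an adjusted p of 0.286 by edgeR and an exact permutation p of 0.2. An antisense gene, Gm48860, shares 46 bases or 1.55% of the exonic sequence of Il3ra, and the use of strand in counting was not given in the sources used here.

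**Figure D4:**
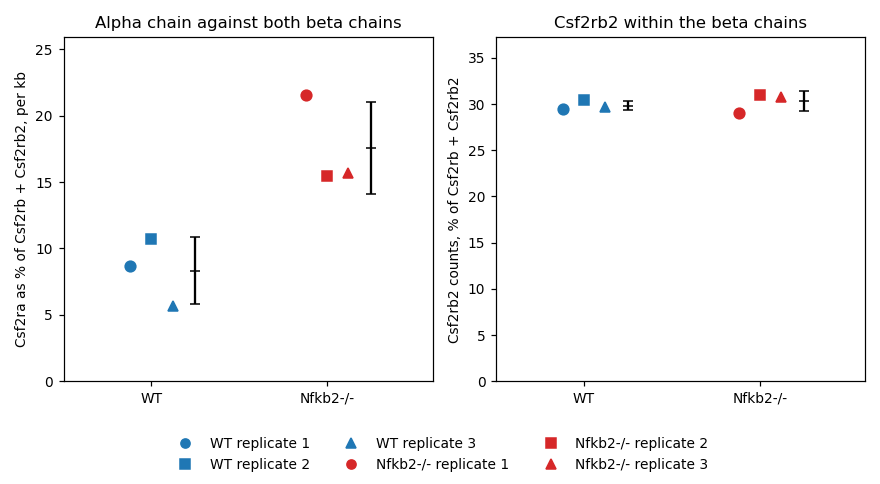
Csf2ra level per kb as a percent of the summed Csf2rb and Csf2rb2 level per kb, and Csf2rb2 as a percent of the counts of both beta chains, with 1 point per library and bars for the mean ± SD. The first measure lay between 5.63% and 10.7% in WT and between 15.4% and 21.6% in Nfkb2-/- libraries, whereas the second lay between 29.1% and 31.0% in all.

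The M-CSF receptor and its ligand were both lowest in the same WT library. Csf1r (ENSMUSG00000024621, chromosome 18), the receptor tyrosine kinase of monocytes and macrophages, was at 238, 250 and 37.2 CPM in WT and at 115, 131 and 157 CPM in Nfkb2-/- libraries. WT replicates 1 and 2 were above every Nfkb2-/- library and WT replicate 3 was below all of them, a 6.72-fold range in WT against 1.37-fold in Nfkb2-/- BMDCs. Only 2.90% of genes with at least 5 CPM had a wider range among the WT libraries. The log2 fold change of Csf1r was -0.38 (SE 0.60, adjusted p = 0.782 by edgeR, exact permutation p = 1.0). Without WT replicate 3 it was -0.86 (SE 0.17) with an adjusted p of 0.0781, without WT replicate 2 it was -0.06, and limma voom with all libraries gave 0.03, so that its size rested on single WT libraries and its direction on the method. Csf1r shares 873 exonic bases, 15.1% of its exonic sequence, with Hmgxb3 on the opposite strand. Hmgxb3 was at 30.6, 37.2 and 28.6 CPM in WT and at 36.0, 32.3 and 31.4 CPM in Nfkb2-/- libraries, lowest in WT replicate 3 as Csf1r was, and its part in the Csf1r counts was not tested.

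The macrophage markers had the same low library as Csf1r. Their summed level was 4379, 4495 and 426 CPM in WT and 1856, 2726 and 2660 CPM in Nfkb2-/- libraries. Lyz2 made up most of this sum, at 3430, 3401 and 266 CPM in WT and 1232, 2057 and 1864 CPM in Nfkb2-/- libraries. Of 13 tested markers, 12 were lowest in WT replicate 3, against 25.0% of all genes. None of the macrophage markers was called by edgeR, and 1 of them, Vsig4, was at no more than 3 counts in every library. Apoe alone had an unadjusted p under 0.05 by edgeR and was called by DESeq2, lower, and it was not lowest in WT replicate 3. Apoe was at 82.2, 56.4 and 3.68 CPM in WT and at 2.24, 0.724 and 0.897 CPM in Nfkb2-/- libraries. The part of macrophage content in the Csf1r values was not tested. Csf1 (ENSMUSG00000014599, chr3:107741048-107760469, minus strand), which encodes the ligand M-CSF, was at 29.4, 30.7 and 11.3 CPM in WT and at 36.5, 42.1 and 31.9 CPM in Nfkb2-/- libraries. WT replicate 3 was again the lowest, and the Nfkb2-/- values all lay above the WT values. The log2 fold change of Csf1 was 0.63 (SE 0.36, adjusted p = 0.431 by edgeR, exact permutation p = 0.1), and it was 0.29 without WT replicate 3.

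**Figure D5:**
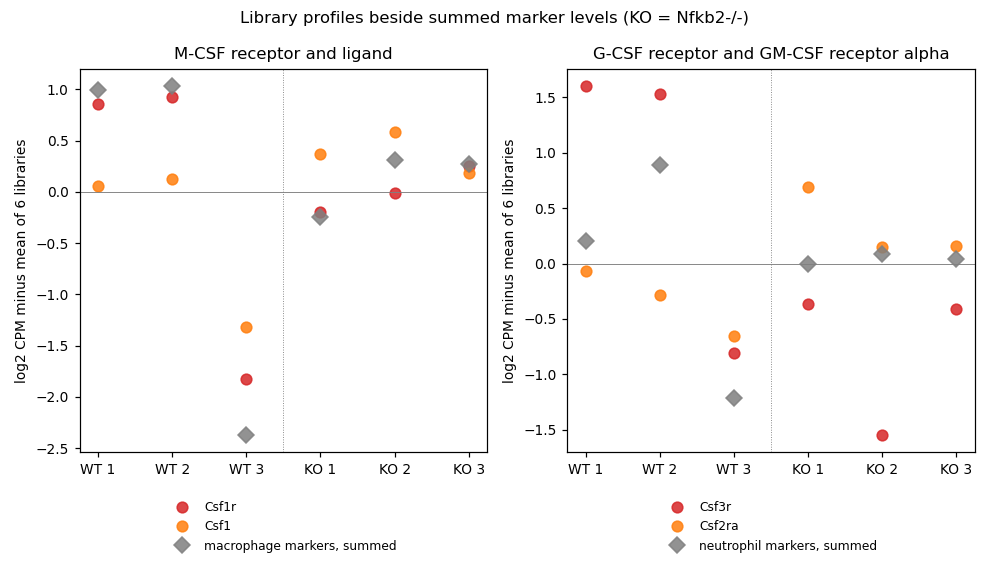
Log2 CPM of 4 members and of the summed macrophage and neutrophil markers in each library, minus the mean over the 6 libraries. Csf1r, Csf1 and the macrophage markers were lowest in WT replicate 3, and in the other panel Csf3r was high in WT replicates 1 and 2 while the neutrophil markers were low in WT replicate 3.

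Csf3r showed the largest fold change among the members, and its call depended on the method. This G-CSF receptor of neutrophils and their precursors (ENSMUSG00000028859, chr4:126024550-126044440, plus strand) was at 17.2, 16.4 and 3.23 CPM in WT and at 4.39, 1.94 and 4.26 CPM in Nfkb2-/- libraries. WT replicates 1 and 2 were above every Nfkb2-/- library, whereas WT replicate 3 lay between the Nfkb2-/- values. The mean was 12.3 ± 7.84 CPM in WT and 3.53 ± 1.38 CPM in Nfkb2-/- BMDCs (SD, n = 3), a 3.48-fold lower level in the latter. The log2 fold change was -1.79 (SE 0.62) with an adjusted p of 0.202 by edgeR and an exact permutation p of 0.3. DESeq2 gave -1.81 with an adjusted p of 0.0313, and edgeR without WT replicate 3 gave -2.24 with an adjusted p of 0.0467, in a fit that called 1.27% of all genes. With no filter beyond 1 count, where edgeR called 3.5% of all genes, Csf3r was also called. It passed under 3 of 14 alternatives, with adjusted p-values from 1.16e-07 to 0.495 over all of them.

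The neutrophil markers were low in the same WT library as Csf3r. Their summed level was 299, 480 and 112 CPM in WT and 259 to 275 CPM in Nfkb2-/- libraries. Of 14 tested markers, 8 were lowest in WT replicate 3, against 25.0% of all genes. None was called by edgeR, and 5 had an unadjusted p under 0.05, against 17.1% of all genes. DESeq2, which called 8.6% of all genes, called Ngp and Ltf, granule proteins of developing neutrophils, lower. It called Cxcr2, the chemokine receptor of mature neutrophils, higher. Ngp was at 70.6, 80.4 and 18.0 CPM in WT and at 13.8, 21.5 and 13.0 CPM in Nfkb2-/- libraries, the same high pair of WT libraries as for Csf3r. Cxcr2 was at 4.41, 11.9 and 1.31 CPM in WT and at 93.0, 91.3 and 65.0 CPM in Nfkb2-/- libraries, with no overlap and in the direction opposite to Csf3r. Cxcr2 thus made up a larger part of the marker sum in Nfkb2-/- than in WT libraries. The part of neutrophil content in the Csf3r values was not tested.

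Kit and Flt3, the receptor tyrosine kinases of early progenitors, were the most even of the members across the libraries. Kit (ENSMUSG00000005672, chr5:75574916-75656722, plus strand) was at 41.1, 42.9 and 37.1 CPM in WT and at 41.1, 45.8 and 50.4 CPM in Nfkb2-/- libraries. The genotypes overlapped, and the log2 fold change was 0.18 (SE 0.15, adjusted p = 0.570 by edgeR, exact permutation p = 0.2). Flt3 (ENSMUSG00000042817, chr5:147330741-147400489, minus strand), whose ligand drives dendritic cell development, was at 17.0, 12.1 and 16.5 CPM in WT and at 13.6, 12.9 and 14.0 CPM in Nfkb2-/- libraries. WT replicate 2 was the lowest of the 6, and the log2 fold change was -0.17 (SE 0.18, adjusted p = 0.669 by edgeR, exact permutation p = 0.4). With any 1 library left out, the log2 fold change stayed between 0.11 and 0.25 for Kit and between -0.34 and -0.08 for Flt3.

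Summed markers of the cells that carry KIT did not share its even profile, although single markers differed from each other. Myb, a progenitor marker, had a log2 fold change of 0.09 (adjusted p = 0.834 by edgeR). Slc18a2, a mast cell and basophil marker, had one of -0.10 (adjusted p = 0.884 by edgeR). Progenitor markers summed to between 220 and 547 CPM in WT and between 155 and 174 CPM in Nfkb2-/- libraries, and mast cell and basophil markers to between 53.7 and 134 CPM and between 133 and 219 CPM. The progenitor sum followed Sox4, a transcription factor gene at 353 ± 171 CPM in WT and 93.1 ± 11.0 CPM in Nfkb2-/- BMDCs (SD, n = 3), whereas the median log2 fold change of the list was 0.99. Cd34, which encodes a surface protein of blood progenitors, was at 2.28 ± 2.09 and 27.5 ± 0.367 CPM, with an adjusted p of 0.0536 by edgeR and 1.70e-07 by DESeq2. None of 10 tested progenitor markers was called by edgeR, and 4 had an unadjusted p under 0.05, against 17.1% of all genes. DESeq2 called 2 higher and 1 lower, against 8.6% of all genes in either direction. The mast cell and basophil sum followed Il1rl1, which encodes the IL-33 receptor, at 36.4 ± 48.0 CPM in WT and 141 ± 36.5 CPM in Nfkb2-/- BMDCs, whereas the median log2 fold change of that list was -0.92. Of its 9 tested markers, edgeR called 1, Cpa3, a protease of mast cells, which fell by 1.84 on the log2 scale (adjusted p = 0.0413). Cpa3 was at 10.8, 6.30 and 6.84 CPM in WT and at 1.86, 2.34 and 2.48 CPM in Nfkb2-/- libraries. The part of these cells in the Kit values was not tested.

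Of 10 other ligands of these receptors and their relatives, 3 passed the filter on low counts, with a median log2 fold change of -0.15. EdgeR called none of them, and Flt3l alone had an unadjusted p under 0.05 and was called by DESeq2. Csf2, which encodes GM-CSF itself, did not pass, and it was at most 0.442 CPM in any library of these cultures, which received the protein. Flt3l, the ligand of FLT3, was at 1.21, 1.11 and 0.481 CPM in WT and at 4.10, 2.11 and 2.82 CPM in Nfkb2-/- libraries. The genotypes did not overlap, with a log2 fold change of 1.68 (SE 0.44), an adjusted p of 0.12 by edgeR and of 0.0148 by DESeq2. Kitl and Il34, which encode stem cell factor and the second ligand of CSF1R, were at most at 0.584 CPM in any library.

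Among 20 related receptors, edgeR called 2 lower and none higher, with a median log2 fold change of 1.14 against 0.08 for all genes. Of the 20 genes, 10 were highest in Nfkb2-/- replicate 1, the library with counts on the most IDs, against 31.2% of all genes, and the part of that library in the median was not tested. Igf1r, the receptor for insulin-like growth factor 1, was at 169, 158 and 156 CPM in WT and at 86.8, 85.1 and 92.4 CPM in Nfkb2-/- libraries and fell by 0.87 on the log2 scale (SE 0.13, adjusted p = 0.0413 by edgeR). Tyro3, a receptor for Gas6 and protein S, fell by 1.84 on the log2 scale (SE 0.29, adjusted p = 0.0419 by edgeR), from 11.0 ± 1.96 to 3.07 ± 1.06 CPM. At an unadjusted p under 0.05, 9 of the 20 passed, against 17.1% of all genes. DESeq2 called 1 higher and 4 lower, against 8.6% of all genes in either direction. The other abundant receptors on the list did not pass by edgeR. Il7r, which binds IL-7, had a log2 fold change of -0.83 (adjusted p = 0.143 by edgeR, 0.0221 by DESeq2) and Met, the receptor for hepatocyte growth factor, one of -1.03 (adjusted p = 0.163 by edgeR, 0.0266 by DESeq2), both with no overlap between the genotypes. For Il4ra, the receptor chain for the IL-4 given to the cultures, the log2 fold change was -0.47 (adjusted p = 0.239), and for Axl, a relative of Tyro3, it was 1.2 (adjusted p = 0.255).

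Downstream of these receptors, none of 34 genes of receptor-proximal signaling was called by edgeR, and their median log2 fold change was -0.08. At an unadjusted p under 0.05, 8 passed, against 17.1% of all genes. DESeq2 called 1 higher and 5 lower, against 8.6% of all genes in either direction. The most abundant was Jak2, the kinase bound to the beta chain, at 3006 ± 679 CPM in WT and 2821 ± 528 CPM in Nfkb2-/- BMDCs, with a log2 fold change of -0.09 (adjusted p = 0.883 by edgeR). Pik3r1, a regulatory subunit of PI3 kinase, had a log2 fold change of -0.65 (adjusted p = 0.147 by edgeR, 0.0146 by DESeq2). Cbl and Cblb, ubiquitin ligases that act on activated receptors, had log2 fold changes of 0.06 (adjusted p = 0.875 by edgeR) and -0.77 (adjusted p = 0.171 by edgeR, 0.0373 by DESeq2).

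Of 17 genes that respond to STAT5, edgeR called 1 higher and none lower, and the median log2 fold change was 0.13. At an unadjusted p under 0.05, 3 passed, against 17.1% of all genes. DESeq2 called 3 higher and none lower, against 8.6% of all genes in either direction. The gene called was Il2ra, the alpha chain of the IL-2 receptor, at 53.6, 94.0 and 93.8 CPM in WT and at 207, 195 and 250 CPM in Nfkb2-/- libraries, which rose by 1.43 on the log2 scale (SE 0.25, adjusted p = 0.0491). Ccnd2, which encodes cyclin D2, had the largest fold change on the list, at 91.9 ± 68.6 CPM in WT and 673 ± 144 CPM in Nfkb2-/- BMDCs. Its log2 fold change was 2.87 (adjusted p = 0.0572 by edgeR, 5.47e-07 by DESeq2), and the genotypes did not overlap. The most abundant genes on the list did not pass the test. Id2, a repressor needed for dendritic cell development, had a log2 fold change of -0.38 (adjusted p = 0.530 by edgeR), and Mcl1, a survival factor, one of -0.33 (adjusted p = 0.531). Socs2, a feedback inhibitor of cytokine receptors, and Spred1, an inhibitor of the Ras pathway, both had log2 fold changes of -0.10, with adjusted p-values of 0.858 and 0.852 by edgeR.

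Of 24 myeloid transcription factors, 23 passed the filter, none was called by edgeR, and the median log2 fold change was 0.09. Of the 23, 6 had an unadjusted p under 0.05, against 17.1% of all genes. DESeq2 called 1 higher and 2 lower, against 8.6% of all genes in either direction. Irf8, which directs monocyte and dendritic cell fates, was at 378, 173 and 539 CPM in WT and at 93.1, 83.8 and 107 CPM in Nfkb2-/- libraries, with an adjusted p of 0.0660 by edgeR and 3.75e-05 by DESeq2. Irf4 and Runx1 had log2 fold changes of 0.14 (adjusted p = 0.825 by edgeR) and -0.14 (adjusted p = 0.753). Among 10 genes of receptor shedding and turnover, edgeR called Ubash3b lower and none higher, with a median log2 fold change of -0.09. Ubash3b, a phosphatase that acts on activated receptors, was at 190, 179 and 192 CPM in WT and at 72.6, 84.0 and 75.3 CPM in Nfkb2-/- libraries and fell by 1.27 on the log2 scale (SE 0.14, adjusted p = 0.0271 by edgeR). Adam10 and Adam17, proteases that release the outer part of CSF1R and other surface proteins, had log2 fold changes of 0.04 (adjusted p = 0.928 by edgeR) and -0.04 (adjusted p = 0.926). Sla, an adaptor that promotes receptor degradation, had a log2 fold change of 1.48 (adjusted p = 0.371 by edgeR).

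For members with a range of at least 1 on the log2 scale over the 6 libraries, the genes with the most similar profile were listed by the root mean square difference of centred log2 CPM, among 10641 genes. Mocos, Fxyd5 and Utp4 were nearest to Csf2ra, with differences of 0.06, 0.06 and 0.07. Ighm, Cd14 and Aoah were nearest to Csf1r, with differences of 0.11, 0.12 and 0.13. Cd14, a co-receptor for lipopolysaccharide on monocytes and macrophages, was at 29.0, 31.5 and 5.12 CPM in WT and at 13.3, 19.4 and 21.9 CPM in Nfkb2-/- libraries, with the low WT replicate 3 seen for Csf1r. Pros1, Tbkbp1 and Ncln were nearest to Csf1, with differences of 0.13, 0.15 and 0.17. Csf3r had no neighbour as close, and Sash1 and Selenop differed from it by 0.27 and 0.47. The points behind each difference were 6 libraries that share their depth and marker content with every gene.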

How the data were processed

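RNA-seq counts of unstimulated BMDCs from WT and Nfkb2-/- mice, 3 libraries per genotype, were used, with genotype and replicate taken from the sample labels. The replicates are described by the study as independent, and p-values measure the spread between these libraries. The authors deposited raw counts, whole numbers of reads per Ensembl gene without normalization. HISAT2 and GRCm38 (mm10) are named in the submitters' processing notes, and the counting tool, annotation and use of strand were not given in the sources used here. A joined table of the same counts was not used.

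Names came from GENCODE M21 (GRCm38). IDs without a name held 1.01% to 1.75% of the counts of a library and stayed out of library sizes and tests. A sum of at least 50 counts over all 6 libraries was required of a gene. Counts were normalized with TMM and tested with glmQLFit and glmQLFTest of edgeR 4.0.16 in R 4.3.3 without covariates, with Benjamini-Hochberg adjustment over all 21849 genes, and the common dispersion was 0.219. CPM are TMM-normalized, and CPM per kb divide by merged exonic length. The script was tested on simulated data. Alternatives were DESeq2 1.42.0, limma voom 3.58.1, other scalings and filters, a replicate block, summed beta chains and each library left out in turn.

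From each list of related genes, the genes called and the 4 most abundant were to be named, and the 3 most similar genes for each variable member, of which 1 is not reported here. Flt3l, Csf2, Ccnd2, Ngp, Ltf, Cxcr2, Vsig4, Apoe, Xcr1, Clec9a and Siglech were named for their values or roles. The members and lists were chosen with earlier results of these data known.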

Additional observations from a re-analysis of the deposited data

How the results depend on the processing

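Over 125 fold changes of the members under 14 alternatives, 121 kept their direction and their side of the threshold. The exceptions were Csf3r, which passed under DESeq2, with no filter beyond 1 count (-1.89) and without WT replicate 3, and Csf1r, which reversed to 0.033 with limma voom. The count of members called lower was accordingly 1 under DESeq2 and with no filter beyond 1 count, against 0, and between 0 and 1 with a library left out, the call being Csf3r without WT replicate 3. No member was called higher in any alternative. The 4 members without overlap became 1 with total counts without TMM and 5 with DESeq2's size factors, and between 4 and 7 with a library left out. It was 7 without WT replicate 2, with Kit higher and Flt3 and Il3ra lower beside the former 4. With fewer libraries in a genotype, a lack of overlap is easier to reach. The share over all genes was not taken for these smaller sets, so these counts have no background beside them. The cause of these changes was not tested. The difference in the Csf2rb2 share of the beta chain counts, 0.461 percentage points, was between 0.0952 and 1.08 points with a library left out, highest without Nfkb2-/- replicate 1. The scalings moved the median log2 fold change of all genes between 0.02 and 0.16.

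Replicate numbers are shared between the genotypes in the labels. Deviations of same-numbered libraries from their genotype mean correlated at 0.262, 0.148 and 0.0224, and not every library correlated best with its own number, so the numbers were not taken as pairs. With the replicate block, 0 of the members were called, as without it, the genotypes' fold change was -0.06 for Csf1r, and the count over all genes was 0 in place of 248. Depth limits little here, since each member had many counts in every library; 3 libraries per genotype limit the precision.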

Other observations

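Cells that use the beta chain Csf2rb outside the dendritic lineage include eosinophils. Their markers summed to between 10.7 and 70.5 CPM in WT and between 91.1 and 109 CPM in Nfkb2-/- libraries, the direction opposite to Csf2rb. Of 6 tested eosinophil markers edgeR called none, and 4 had an unadjusted p under 0.05, against 17.1% of all genes. DESeq2 called 2 higher, against 8.6% of all genes in either direction. Siglecf, a surface lectin of eosinophils, made up most of their sum. It had a mean of 23.3 ± 22.0 CPM in WT and 75.5 ± 8.85 CPM in Nfkb2-/- BMDCs (SD, n = 3). Its adjusted p was 0.240 by edgeR and 0.0453 by DESeq2. The part of eosinophils in the Csf2rb values was not tested.

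Markers of mature dendritic cells summed to between 8594 and 17284 CPM in WT and between 7734 and 8396 CPM in Nfkb2-/- libraries. Ccl22 made up most of this sum, at 8121 ± 2433 CPM in WT and 5742 ± 363 CPM in Nfkb2-/- BMDCs (SD, n = 3). The Ccl22 values overlapped between the genotypes. Of 10 tested markers edgeR called 1, Il12b, which encodes the p40 subunit of IL-12 and fell by 3.09 on the log2 scale (SE 0.53, adjusted p = 0.0489). Of the 10, 6 had an unadjusted p under 0.05, against 17.1% of all genes. Lower with no overlap between the genotypes were 4, against 12% of all genes. DESeq2, which called 8.6% of all genes, called Fscn1, Cd83 and Il12b lower. Markers of cDC1, the cross-presenting dendritic cells that depend on FLT3 ligand, summed to between 441 and 596 CPM in WT. In Nfkb2-/- libraries the sum was between 653 and 696 CPM. Most of it was Wdfy4 and Irf8, which went in opposite directions. Wdfy4 was at 116 ± 105 and 544 ± 12.2 CPM in WT and Nfkb2-/- BMDCs (SD, n = 3). Irf8 was at 364 ± 184 and 94.5 ± 11.4 CPM in the same order. Xcr1 and Clec9a, also on the list, had means of 0.160 and 1.43 CPM in WT and 0.337 and 3.80 CPM in Nfkb2-/- BMDCs. EdgeR called none of 8 markers, and 4 had an unadjusted p under 0.05, against 17.1% of all genes. DESeq2 called 3 higher and 1 lower, against 8.6% of all genes in either direction. Plasmacytoid dendritic cell markers summed to 178 to 200 CPM in WT and 188 to 235 CPM in Nfkb2-/- libraries. Most of this was Tcf4, at 140 ± 10.2 and 158 ± 21.6 CPM (SD, n = 3), while Siglech was at most at 0.663 CPM in any library. None of 6 was called by edgeR, with 1 at an unadjusted p under 0.05 and 1 called higher by DESeq2, against 17.1% and 8.6% of all genes.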
